A study of Mus musculus with 6 samples.

Results

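The desmosomal cadherins and plaque proteins are described here in mouse thyroid lobes with and without the transcription factor Foxe1. The set was chosen by name: the desmogleins Dsg1a, Dsg1b, Dsg2 and Dsg3, the desmocollins Dsc1, Dsc2 and Dsc3, and the plaque proteins desmoplakin (Dsp), plakoglobin (Jup) and plakophilin 1 (Pkp1). All 10 were measured, each by 1 probe set, among 22206 probe sets of which 19572 carry a gene symbol. The names were picked with earlier results of these arrays known, so the differences between the groups are given as a description. Each value is the log2 signal of a probe set on 1 array, so a difference of 1 log2 unit is a doubling of signal. One group held 3 Foxe1flox/flox/Cre mice, called knockouts, in which tamoxifen-activated Cre recombinase removes the floxed Foxe1 gene. The other held 3 mice with the label Cre control, called controls, for which the labels name no floxed allele. Mice of both groups had a C57BL/6J background and received tamoxifen at 0.05 g/kg into the abdomen on 5 consecutive days at 6 to 8 weeks of age. Thyroid was taken 2 weeks after treatment, and 1 lobe per animal gave 1 array. Neither the promoter that drives Cre nor the sex of the animals is named in the sources used here.

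Desmosomes are the spot-like junctions that fasten epithelial cells to each other. Desmogleins and desmocollins are calcium-dependent cadherins that cross the gap between neighbouring cells. Inside the cell their tails bind plakoglobin and plakophilins, and desmoplakin ties this plaque to the keratin filaments. In stratified squamous epithelium Dsg1 and Dsc1 are typical of the upper layers and Dsg3 and Dsc3 of the lower layers, whereas Dsg2 and Dsc2 also serve simple epithelia, the kind that lines thyroid follicles.

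The labels were checked on Foxe1 first. It read 7.60, 7.19 and 7.04 on the control arrays and 3.33, 2.88 and 3.04 on the knockout arrays, and it fell by 4.19 (SE 0.22, limma adjusted p = 0.000442). Thyroglobulin (Tg), the defining product of the follicular cell, stood between 18.67 and 19.27 on all arrays, near the top of the scale at 19.93. The lobes of both groups also carried strong signal of squamous epithelium, with the keratin Krt13 between 19.12 and 19.37 and Krt4 between 19.88 and 19.93. Squamous transcripts were thus plentiful beside follicular ones. Array medians lay between 5.62 and 5.69, and the 3 arrays per group limit the precision of each value. In RNA of a whole lobe, more cells of a type and more RNA per cell cannot be told apart.

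All 10 desmosomal genes had a higher mean in the knockouts, and none passed the threshold of an adjusted p of 0.05. The differences ran from 0.28 for Dsg2 to 2.02 for Dsc1, with a median of 0.83, while the median over all probe sets was -0.02. In the limma fit, adjusted by Benjamini-Hochberg across the whole array, 0 of the 10 passed, where 0.338% of all probe sets did. The smallest adjusted p was 0.0815, for Dsc1, so that 1 of the 10 stood under 0.10, as did 1.17% of all probe sets. At an unadjusted p under 0.05, 8 of the 10 were higher in the knockouts, against 6.61% of all probe sets. For 7 of the 10, all 3 knockout arrays lay above all 3 controls, which held for 9.28% of all probe sets. A difference above 0, whatever its size, was seen for 46.8% of all probe sets. The genes were named with such values in view, so these counts carry no weight as a test of the group.

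**Figure D1:**
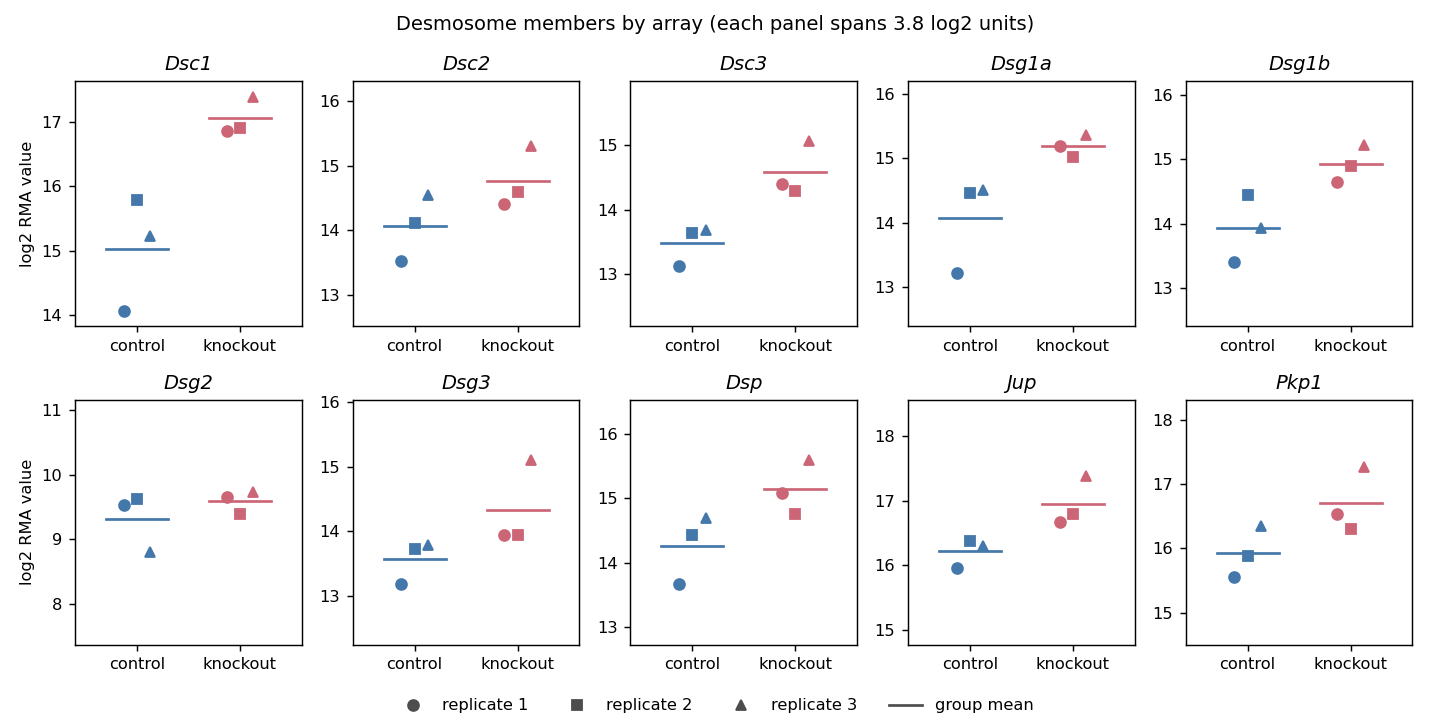
Log2 values of the 10 desmosomal genes on each array, controls in blue and knockouts in red, with marker shapes for the replicate number and a line at each group mean; all panels have the same height in log2 units. Dsc1 has the widest gap between groups (15.03 against 17.05), Dsg2 the narrowest (9.32 against 9.60), and knockout 3 is the highest array in each panel.

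The desmocollins included the gene with the largest difference. Dsc1, the desmocollin of upper squamous layers, read 14.07, 15.79 and 15.22 on the control arrays and 16.86, 16.90 and 17.39 on the knockout arrays. The lowest knockout stood above the highest control by more than 1 unit, and the controls were more scattered than the knockouts (SD 0.88 and 0.30, n = 3 each). The difference was 2.02, a 4.07-fold higher signal, with a 95% interval from 1.12 to 2.93 (limma adjusted p = 0.0815). Dsc3, the desmocollin of the basal layers, read 13.13, 13.63 and 13.69 on the control arrays and 14.40, 14.29 and 15.06 on the knockout arrays, again without overlap. It differed by 1.10 (SE 0.26, adjusted p = 0.132). Dsc2, the desmocollin shared with simple epithelia, read 13.52, 14.12 and 14.55 on the control arrays and 14.40, 14.59 and 15.31 on the knockout arrays. Here control 3 stood above knockout 1, and the difference of 0.70 had an interval from -0.03 to 1.43 (adjusted p = 0.41).

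Among the desmogleins, both Dsg1 copies and Dsg3 were separated by group and Dsg2 was not. Dsg1a, an upper-layer desmoglein, read 13.23, 14.47 and 14.51 on the control arrays and 15.19, 15.02 and 15.37 on the knockout arrays. Its copy Dsg1b read 13.41, 14.45 and 13.94 on the control arrays and 14.65, 14.90 and 15.22 on the knockout arrays. Control 1 was the lowest array for both genes, and the closest arrays of opposite groups were 14.51 and 15.02 for Dsg1a and 14.45 and 14.65 for Dsg1b. The differences were 1.12 (SE 0.34, adjusted p = 0.203) and 0.99 (SE 0.28, adjusted p = 0.187). The mouse Dsg1 copies are close relatives, and the sources used here do not say how far their probes read each other's transcripts, so their values may not be independent.

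Dsg3, the desmoglein of the lower layers, read 13.19, 13.72 and 13.79 on the control arrays and 13.95, 13.95 and 15.10 on the knockout arrays. Its groups did not overlap, but knockouts 1 and 2 lay within 0.2 units of the highest control and knockout 3 alone stood well above, with a knockout SD of 0.66. The difference was 0.77, with an interval from 0.01 to 1.52 (adjusted p = 0.386). Without knockout 3 it was 0.38. Dsg2, the desmoglein of simple epithelia, read 9.53, 9.62 and 8.80 on the control arrays and 9.66, 9.40 and 9.74 on the knockout arrays. Knockout 2 lay below controls 1 and 2, so the groups overlapped, and the low array was control 3 rather than control 1. The difference of 0.28 had an interval from -0.29 to 0.85 (adjusted p = 0.706). Without control 3 the difference was 0.02.

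The 3 plaque proteins differed by 0.74 to 0.88. Desmoplakin, the link to keratin, read 13.67, 14.44 and 14.69 on the control arrays and 15.08, 14.76 and 15.60 on the knockout arrays, with no overlap but only 0.07 units between control 3 and knockout 2. It differed by 0.88 (SE 0.31, adjusted p = 0.28). Plakoglobin, which joins both desmosomes and adherens junctions, read 15.96, 16.38 and 16.30 on the control arrays and 16.67, 16.80 and 17.38 on the knockout arrays. Its groups did not overlap, and it had the narrowest spread of the plaque genes among controls (SD 0.22, n = 3). It differed by 0.74 (SE 0.24, adjusted p = 0.235). Plakophilin 1, the plakophilin of stratified epithelia, read 15.55, 15.88 and 16.35 on the control arrays and 16.53, 16.30 and 17.27 on the knockout arrays. Control 3 stood just above knockout 2, and the difference was 0.77 (SE 0.30, adjusted p = 0.327).

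The stretches upstream of 2 plaque genes, Dsp and Jup, are given as a description. Of the 10 genes, 2 have an entry in the RefSeq promoter table of build GRCm38.p6. Each is printed 5′ to 3′ on the gene's strand up to the annotated start of the gene, at chr13:38151044-38151293 on the plus strand for Dsp and at chr11:100397840-100398040 on the minus strand for Jup. Capitals mark the GC box CCGCCC, read on both strands, which zinc-finger factors of the Sp and Krüppel-like families are known to bind.
Dsp: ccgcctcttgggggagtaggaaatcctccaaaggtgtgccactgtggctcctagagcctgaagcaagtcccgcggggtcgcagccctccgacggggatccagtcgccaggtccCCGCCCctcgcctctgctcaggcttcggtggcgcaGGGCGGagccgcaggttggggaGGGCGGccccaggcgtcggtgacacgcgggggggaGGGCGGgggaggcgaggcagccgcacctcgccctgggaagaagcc
Jup: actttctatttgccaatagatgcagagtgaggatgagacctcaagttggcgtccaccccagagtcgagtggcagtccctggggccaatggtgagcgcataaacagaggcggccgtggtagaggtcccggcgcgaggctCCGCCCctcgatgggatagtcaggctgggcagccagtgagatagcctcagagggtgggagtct
The Dsp stretch of 250 bases holds 4 such boxes and is 72.4% G or C. The Jup stretch of 201 bases holds 1 and is 60.2% G or C. Over all promoters of the table, the median G and C content of the first 250 bases of the entry was 52.4%, and 32.7% of them hold the box. For Jup these 250 bases run past the annotated start of the gene. Its printed stretch of 201 bases is thus shorter than the window behind these shares and behind the motif search. A Grainyhead-like motif, AACCNGTT, was found in 1.79% of all promoters and an AP-1 motif, TGANTCA, in 6.75%, searched on both strands, and in neither the Dsp nor the Jup window. The GC box was chosen after the sequences were read, so its presence in both stretches carries no weight as a test.

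The cadherin genes are neighbours in the genome. By the RefSeq gene order of assembly GRCm38.p6, 9 desmocollin and desmoglein genes lie side by side on chromosome 18, in the order Dsc3, Dsc2, Dsc1, Dsg1c, Dsg1a, Dsg1b, Dsg4, Dsg3 and Dsg2, and 7 of them belong to the 10. Along this row the differences were 1.10, 0.70, 2.02, 0.85, 1.12, 0.99, -0.30, 0.77 and 0.28. Dsg4, a desmoglein of hair and upper skin layers, read 3.64, 3.00 and 3.25 on the control arrays and 3.24, 3.04 and 2.72 on the knockout arrays. On every array but control 1 it lay below the lower quartile (3.49 to 3.60), near the bottom of the arrays, where a difference could hardly be seen. Dsp, Jup and Pkp1 lie on chromosomes 13, 11 and 1.

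**Figure D2:**
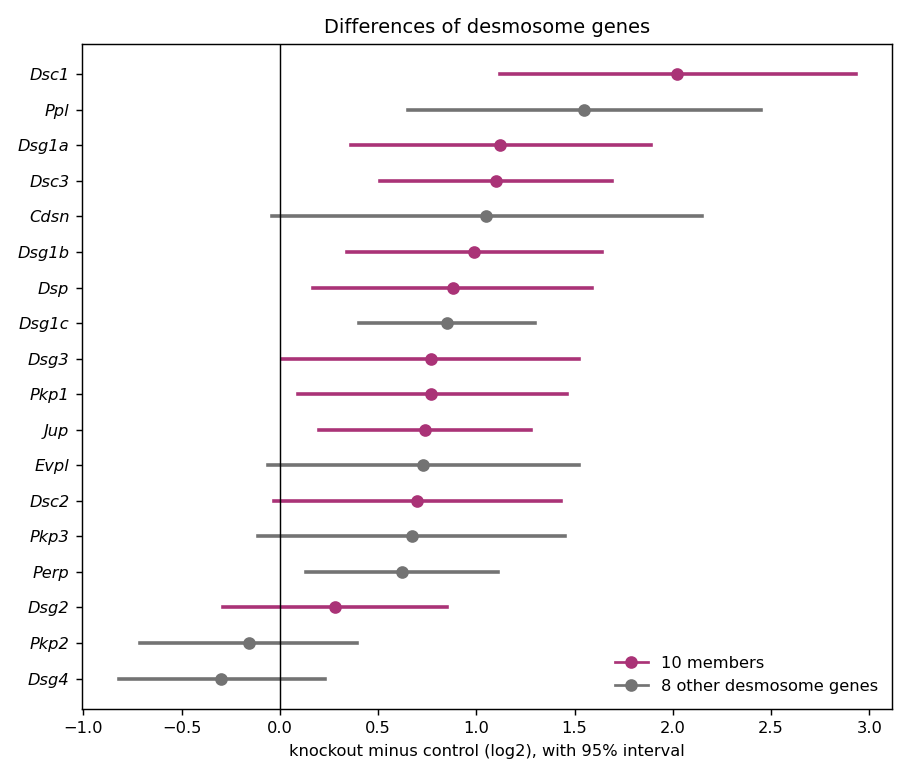
Knockout minus control in log2 units, with 95% intervals from limma, for the 10 desmosomal genes and 8 other desmosome genes, ordered by size. Dsc1 is at the top at 2.02, the intervals of Dsc2, Dsg2, Pkp3, Evpl and Cdsn reach below 0, and Pkp2 and Dsg4 have negative values of -0.16 and -0.30.

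Other desmosome genes ran from -0.30 to 1.55. Of 8 on the list, 6 had a higher mean in the knockouts, 0 passed the adjusted threshold, and the median difference was 0.70. It was 0.42 without knockout 3 and 0.22 without control 1 and knockout 3. Periplakin (Ppl), a plakin of the desmosome and cornified envelope, read 12.99, 14.11 and 14.29 on the control arrays and 15.18, 14.86 and 16.00 on the knockout arrays (difference 1.55, adjusted p = 0.15). Dsg1c, the third Dsg1 copy, differed by 0.85 (adjusted p = 0.127) and Perp, a membrane protein of desmosomes in stratified epithelia, by 0.62 (adjusted p = 0.266). These 3, chosen for the smallest p, had every knockout above every control. Of the 8, 3 had every knockout above the controls (9.28% of all probe sets) and 5 overlapped. Pkp2, the plakophilin of simple epithelia and heart, read 5.40, 4.85 and 4.66 on the control arrays and 4.97, 4.93 and 4.53 on the knockout arrays, a difference of -0.16 with an interval from -0.71 to 0.39 (adjusted p = 0.844). Pkp2 and Dsg4 are named beyond the rule for named genes, after their values were seen.

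The 10 genes mostly shared their highest and their lowest array. Knockout 3 was the highest array for 10 of the 10, and control 1 was the lowest for 9, Dsg2 being lowest in control 3. The share of all probe sets with these arrays at the ends was not counted. The order of the arrays between varied, as for controls 2 and 3 in Dsg1a and Dsg1b. Averaged over the 10 genes, the deviation from each gene's own mean was -0.93 in control 1, -0.21 in control 2 and -0.27 in control 3. It was 0.28 in knockout 1, 0.24 in knockout 2 and 0.89 in knockout 3. Controls 2 and 3 and knockouts 1 and 2 thus lay close together, and the arrays at both ends carried much of the difference. The median difference of the 10 was 0.60 without control 1, 0.59 without knockout 3 and 0.38 without both, the last a setting added after the values were seen. All 10 differences stayed above 0 in each of these 3 fits, and 0 of the 10 passed. Without both arrays Dsc1 was at 1.38 (adjusted p = 0.157), Dsc3 at 0.68, Dsg1a at 0.62 and Dsg1b at 0.58, while Jup was at 0.40, Dsp at 0.36, Dsg2 at 0.32, Pkp1 at 0.30, Dsg3 at 0.20 and Dsc2 at 0.16.

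**Figure D3:**
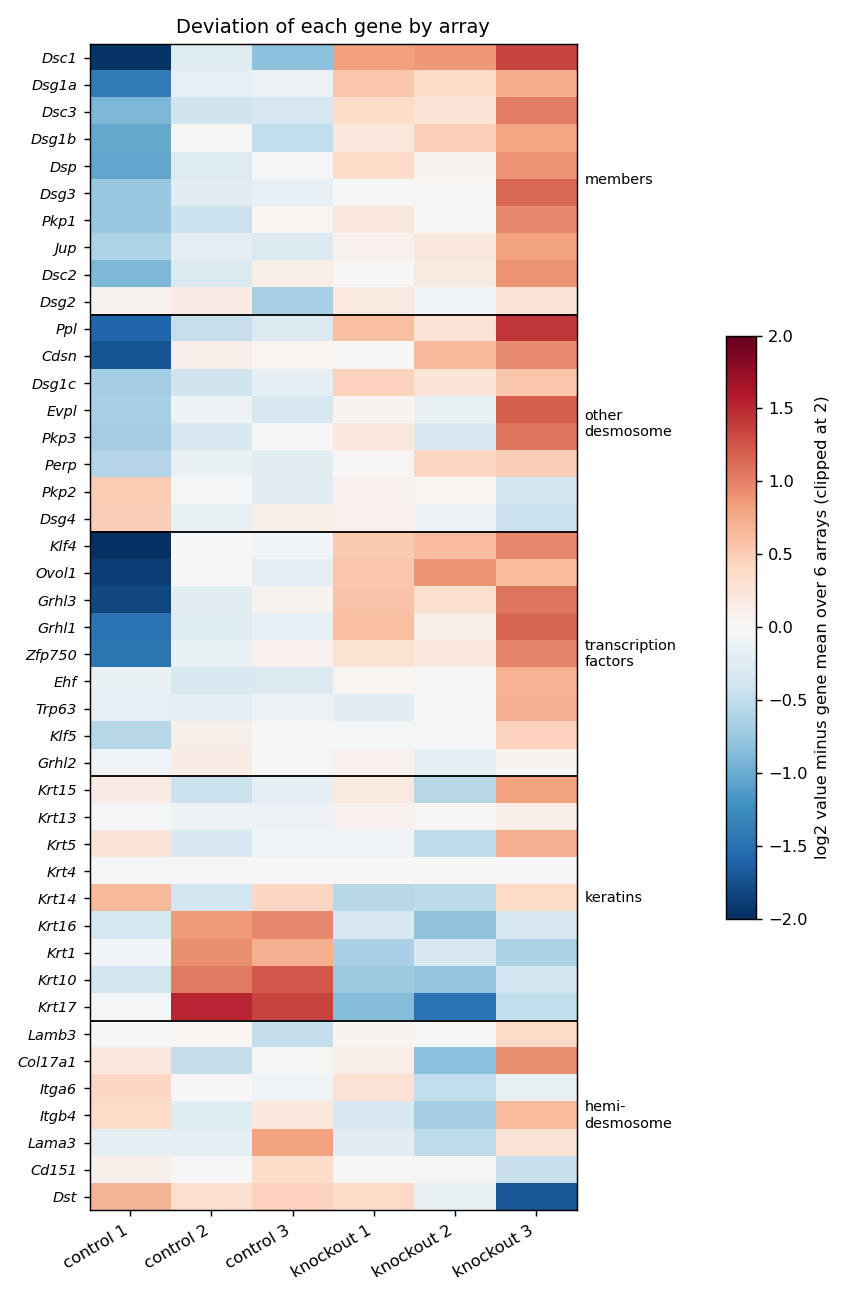
Log2 value of each gene minus its mean over the 6 arrays (colour, red high and blue low), with genes as rows grouped by list and arrays as columns. The desmosomal genes run from blue in control 1 to red in knockout 3, and Dsg2 stands out by its low control 3.

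The keratins that desmosomes anchor had another order of arrays: of 9 keratins of stratified epithelium, 3 were highest in knockout 3 and 1 was lowest in control 1. Of the 9, 4 had a higher and 5 a lower mean in the knockouts, with a median difference of -0.45 and 0 past the threshold. The median was 0.02 over the keratins above the median level of all probe sets and between -0.77 and -0.24 without 1 array, the extremes being those without knockout 3 and control 1, and without control 1 Krt10 and Krt17 passed. Krt4 differed by 0.02 and read 19.88 to 19.93, at the top of the scale, where a difference could hardly be seen. Krt13 differed by 0.16 (adjusted p = 0.758). The basal-layer keratin Krt5 read 16.27, 15.71 and 15.94 on the control arrays and 15.95, 15.51 and 16.74 on the knockout arrays, and its basal partner Krt14 read 13.32, 12.28 and 13.09 against 12.12, 12.14 and 13.07. The groups overlapped for both, and control 1, lowest for most desmosomal genes, was the highest control for both. Krt1 and Krt10, the suprabasal keratins of skin, differed by -1.06 (adjusted p = 0.15) and -1.26 (adjusted p = 0.215), and Krt17, a keratin of appendages and injured epithelium, by -1.89 (adjusted p = 0.113). The signal of Krt1 (4.66 to 6.24) and Krt10 (4.82 to 6.84) was low, around the array medians of 5.62 to 5.69. Krt1, Krt10 and Krt17, chosen for the smallest p, had every knockout below every control. Of the 9, 3 had every knockout below and 1 every knockout above the controls (8.78% and 9.28% of all probe sets), and 5 overlapped. The 4 keratins of simple epithelium also had lower means in the knockouts (median -0.91, 0 past the threshold). Krt7 differed by -2.04, Krt19 by -1.01 and Krt18 by -0.82, at adjusted p no smaller than 0.119.

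Transcription factors of stratified epithelium resembled the desmosomal genes in the arrays that were high and low. Of 9, 8 had a higher mean in the knockouts (median difference 1.00, 0 past the threshold), 7 were highest in knockout 3 and 6 lowest in control 1. Grhl1, a Grainyhead-like factor known to control Dsg1 in skin, read 10.41, 11.65 and 11.72 on the control arrays and 12.49, 12.00 and 13.06 on the knockout arrays (difference 1.26, adjusted p = 0.22). Grhl3 differed by 1.30 (adjusted p = 0.271) and Ovol1, a zinc-finger factor of differentiating keratinocytes, by 1.39 (adjusted p = 0.231). Grhl2, named after its values were seen, was the 1 with a lower mean (difference -0.03, adjusted p = 0.968). Of the 9, 6 had every knockout above the controls (9.28% of all probe sets) and 3 overlapped. Trp63, the master factor of the basal layer, read 13.71, 13.70 and 13.76 on the control arrays and 13.66, 13.84 and 14.61 on the knockout arrays, where knockout 3 alone stood apart (difference 0.31, adjusted p = 0.677). The median of this list was 0.53 without control 1 and 0.30 without control 1 and knockout 3.

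Enzymes that cut desmosomal cadherins, and their inhibitors, went both ways. Of 9, 7 had a higher and 2 a lower mean in the knockouts (median 0.22, 0 past the threshold). Spink5, an inhibitor that protects Dsg1 from kallikreins, read 12.28, 13.18 and 13.37 on the control arrays and 14.49, 14.38 and 14.89 on the knockout arrays (difference 1.64, adjusted p = 0.0714). The kallikrein Klk14 differed by 1.05 (adjusted p = 0.172) and the kallikrein Klk7 by -1.05 (adjusted p = 0.146). Of the 9, 3 had every knockout above and 2 every knockout below the controls (9.28% and 8.78% of all probe sets), and 4 overlapped. Spink5 passed with a variance trend in the fit. The median was 0.10 without control 1 and 0.43 without knockout 2.

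Other junctions were measured beside the desmosome. Of 13 adherens junction genes, 10 had a higher mean in the knockouts (median 0.32, 0 past the threshold). The median was 0.11 without knockout 3 and 0.08 without control 1 and knockout 3. Ctnnd1, the p120 catenin that steadies cadherins at the surface, differed by 0.93 (adjusted p = 0.148), Cdh16, a cadherin of kidney and thyroid, by 1.88 (adjusted p = 0.132), and Afdn, an actin-binding scaffold, by 0.99 (adjusted p = 0.15). E-cadherin (Cdh1), named after its values were seen, differed by 0.26 (adjusted p = 0.654). Of 7 hemidesmosome genes, which fasten the basal layer to its matrix, 2 had a higher mean and 5 a lower one (median -0.23, 0 past the threshold, and between -0.40 and -0.04 without 1 array). Dst differed by -0.97, Cd151 by -0.32 and Lamb3 by 0.29, at adjusted p no smaller than 0.429. Whether these lists differ from the desmosomal genes was not tested.

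**Figure D4:**
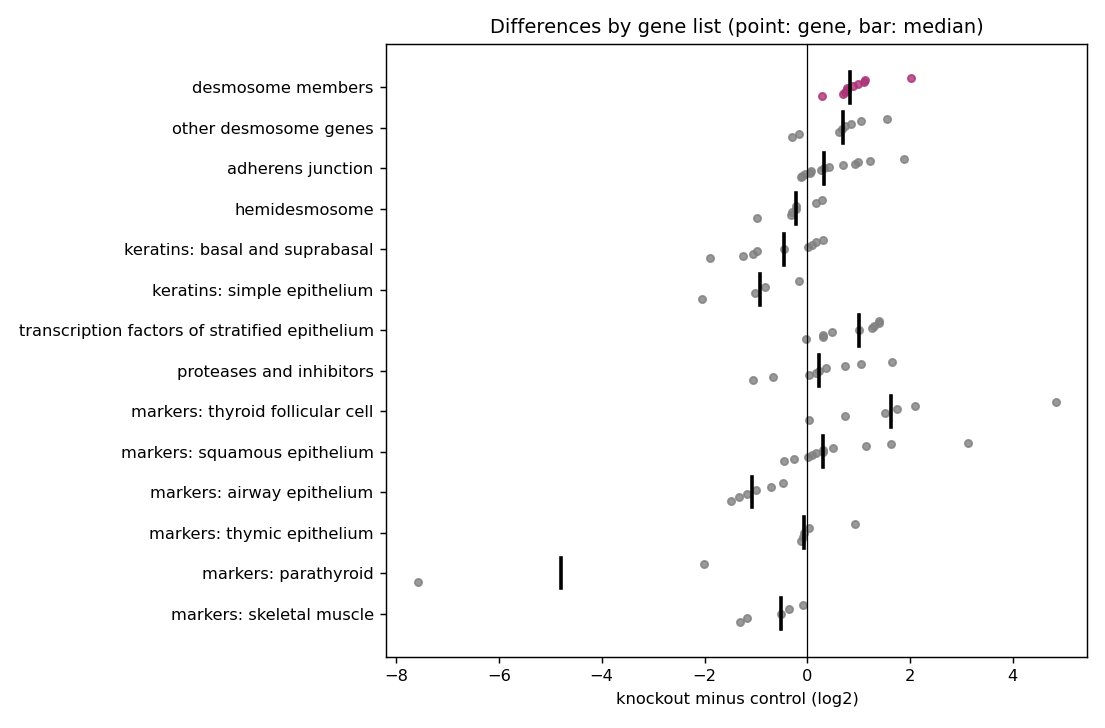
Knockout minus control in log2 units for each measured gene (points) of the 14 lists, with a bar at each list's median. The medians are 0.83 for the desmosomal genes, 0.70 for other desmosome genes, 1.00 for the transcription factors, -0.23 for hemidesmosome genes and -0.45 for keratins of stratified epithelium.

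Markers of squamous epithelium were also higher on average on the knockout arrays. Of 11 measured markers, 9 had a higher mean in the knockouts (median difference 0.30, 0 past the threshold). The median was 0.03 without knockout 3 and 0.02 without control 1 and knockout 3, and Sprr1b and Lor passed with a variance trend in the fit. Their mean log2 level was 13.35, 13.74 and 13.78 on the control arrays and 14.02, 14.02 and 14.64 on the knockout arrays, so that control 1 was lowest and knockout 3 highest, as for the 10 genes. The lowest reading was 4.37 for Ivl, which lay below the array medians (5.62 to 5.69) on every array. Krt4, at 19.88 to 19.93, was at the top of the scale. The 3 with the smallest p are genes of the cornified envelope of upper layers: Sprr1b differed by 3.13, Lor by 1.62 and Sprr3 by 1.15, with adjusted p of 0.0624, 0.0665 and 0.0907. Not all envelope genes of the list did so: Sprr1a differed by 0.49 (adjusted p = 0.785) and Ivl by -0.25, both with overlapping groups. Krt4, Krt5 and Krt13 differed by 0.02, 0.09 and 0.16, and Krt15 and Trp63 by 0.30 and 0.31. Krt13, at 19.12 to 19.37, was also near the top of the scale, and its knockouts all stood above its controls. The 2 markers with a lower mean were Krt14 at -0.45 and Ivl at -0.25. Of the 11, 4 had every knockout above every control (9.28% of all probe sets) and 7 overlapped. Part of the list, its keratins and Trp63, has been counted above. The part of squamous tissue in the desmosomal differences was not tested.

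Markers of other tissues had other array orders. The 6 follicular markers had a mean level of 11.01, 10.81 and 9.02 on the control arrays and 12.35, 11.79 and 12.19 on the knockout arrays, and control 3 was the lowest array for 6 of the 6, as it was for Dsg2 alone among the desmosomal genes. Iyd, which recycles iodide, differed by 2.10, the thyrotropin receptor Tshr by 1.75 and the iodide transporter Slc5a5 by 4.83, at adjusted p no smaller than 0.136. Slc5a5 read 8.00, 8.00 and 2.97 on the control arrays, so its difference leaned on control 3. Pax8 differed by 1.52, Nkx2-1 by 0.73 and Tg by 0.04, the last 2 with overlapping groups. The median of the follicular markers was 1.63, and 1.19 without control 3. The 6 airway markers averaged 16.96 to 17.46 on the control arrays and 16.10 to 16.20 on the knockout arrays, with Bpifb1 at -1.32, Muc5b at -1.48 and Bpifa1 averaging 19.32 against 18.32 (adjusted p no smaller than 0.0722; Bpifb1 passed with a variance trend, with array weights or without control 1). The 5 muscle markers averaged 16.68 to 16.77 on the control arrays and 15.55 to 16.31 on the knockout arrays, with Ryr1, Actn3 and Ckm at -1.31, -1.17 and -0.51 (adjusted p of 0.1 or more), and knockout 3, highest for the desmosomal genes, was lowest for 5 of the 5. The median of these muscle markers was -0.51, and -0.29 without knockout 3. Of the 5 thymic markers, Psmb11, Aire and Prss16 read between 2.30 and 3.83, near the bottom of the arrays, and Ccl25 read between 6.03 and 6.57, above the array medians, while Foxn1, which skin also uses, differed by 0.93 (adjusted p = 0.182). Of the parathyroid markers, Pth read 18.24, 19.68 and 17.02 on the control arrays and 3.56, 18.61 and 10.06 on the knockout arrays, and Casr differed by -2.02 (adjusted p of 0.335 or more). The part of these tissues in the desmosomal differences was not tested.

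The genes with the most similar profiles were sought among 18527 named probe sets. Likeness was the root mean square distance between values centred on their mean over the 6 arrays, where 0 would be an identical profile. Nearest to Dsc1 were Gstm3 (distance 0.10), Fads2b (0.17), Rdh12 (0.18), Them5 (0.18) and Aadacl2 (0.21). Gstm3, a glutathione transferase, read 8.47, 10.21 and 9.66 on the control arrays and 11.36, 11.09 and 11.77 on the knockout arrays (difference 1.96, adjusted p = 0.0969), with the same lowest, middle and highest control as Dsc1. Nearest to the mean of the 10 genes were Jag1 (0.06), Bicdl1 (0.07), Rab27b (0.07), H1f10 (0.08) and Fbxo45 (0.08). Jag1, a ligand of Notch receptors, read 10.14, 10.77 and 10.70 on the control arrays and 11.40, 11.29 and 11.85 on the knockout arrays (difference 0.98, adjusted p = 0.146). With 6 arrays and so many candidates, close matches are easily found, and they are given as a description.

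**Figure D5:**
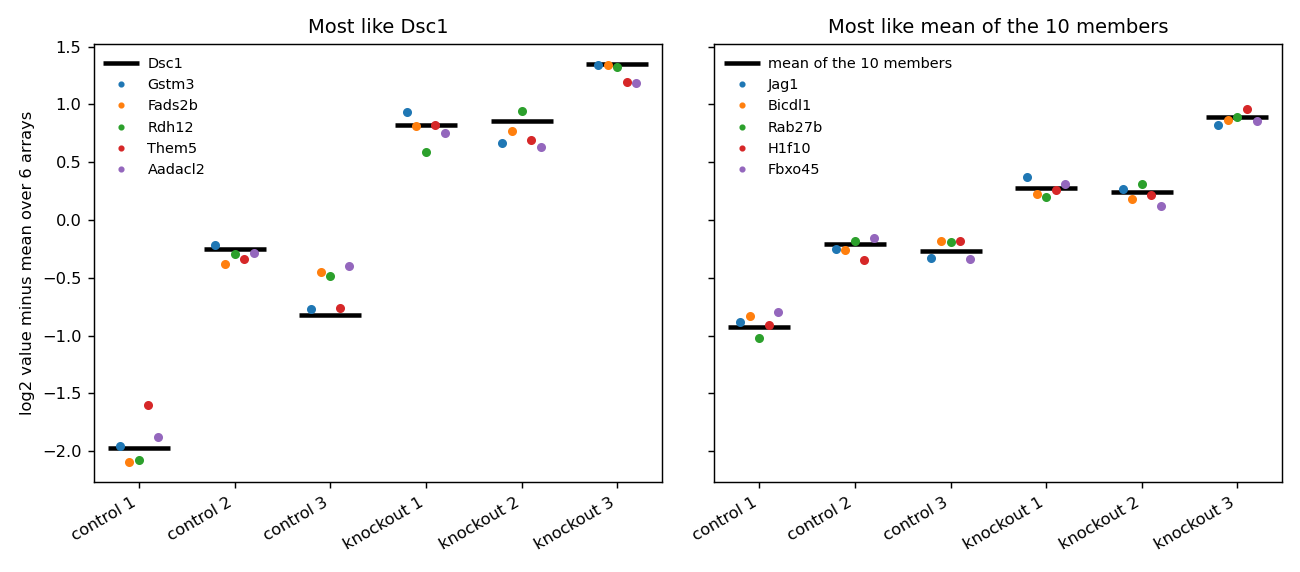
Log2 values minus the mean over the 6 arrays, for Dsc1 (left, black bars) and the mean of the 10 desmosomal genes (right, black bars) with the 5 nearest genes of each (coloured points), by array. The mean of the 10 genes spans -0.93 in control 1 to 0.89 in knockout 3.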

How the data were processed

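The authors deposited values on the log2 scale for each probe set. Per the submitters' processing notes these came from RMA run in Affymetrix Expression Console, and neither settings nor genome build are named in the sources used here. RMA ordinarily equalises the arrays, which removes a change shared by most transcripts, and compresses differences at the ends of the scale. Per the labels' protocols, DNase-treated RNA with an integrity number of at least 7 was used, 250 ng per array. Gene names came from the platform's annotation table, updated by gene identifier to RefSeq (19572 of 19572 matched; 2634 probe sets are unnamed here). A gene was represented by its brightest probe set. All probe sets were tested without a filter in R 4.3.3 with lmFit and eBayes of limma 3.58.1 (two-sided, Benjamini-Hochberg over all probe sets, threshold 0.05), after a check on simulated data. Differences are knockout minus control. Groups came from the sample titles. The p-values measure the spread between the animals sampled, with no batch given. Named genes were Foxe1, the 10 desmosomal genes, the genes of each other list past the threshold or else the 3 with the smallest p, and the 5 nearest profiles of Dsc1, which had the smallest p of the 10, and of their mean. Genes named beyond this are said to be so, or appear for their place on the chromosome or as tissue markers. The members and lists were chosen with earlier results of these data known. Alternatives were to leave out arrays, to normalize by quantiles again or centre on medians, to fit a variance trend (plain or robust) or array weights, to drop dim probe sets, to relax the threshold, to average the probe sets of a gene, and to block on the replicate number.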

Additional observations from a re-analysis of the deposited data

How the results depend on the processing

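The sign of all 10 desmosomal differences held in each of 14 alternative fits, the Foxe1 call held in the 13 that kept its probe set, and 0 of the 10 passed an adjusted p of 0.05 in any of them. At an adjusted p of 0.10 the count was 1 (Dsc1), where 1.17% of all probe sets passed. Dsc1 had an adjusted p between 0.0516 and 0.0855 in the fits on all arrays and between 0.0807 and 0.247 without 1 array. The median difference of the 10 ran from 0.59 to 0.99 without 1 array and was 0.38 without control 1 and knockout 3. The count over all probe sets, 75, was 118 with a robust variance trend, 260 at an adjusted p of 0.10, between 2 and 43 without 1 array, and 6 without control 1 and knockout 3; the fits without arrays have fewer samples. With the replicate block the count was 63, the median 0.83 and the adjusted p of Dsc1 0.0747. The block lowered the adjusted p of Dsc2 from 0.41 to 0.196, of Pkp1 from 0.327 to 0.185 and of Dsg3 from 0.386 to 0.26. That of Dsg2 rose from 0.706 to 0.723. Over all probe sets, deviations of same-numbered arrays had correlations of -0.01, 0.08 and 0.02 for numbers 1, 2 and 3. Not every array correlated best with its own number. The sample titles do not say whether equal numbers mark paired animals. Each desmosomal gene has 1 probe set, so averaging probe sets changed nothing.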
